A study of Mus musculus with 6 samples.

Results

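Glutathione transferases, the enzymes that make and recycle glutathione, and other genes read by the transcription factor NRF2 were examined in mouse liver lacking the copper-transporting ATPase Atp7b. The set comprised 36 named genes, taken by symbol from the array's annotation. Probe sets carrying 1 of these symbols were found for 34 genes (51 probe sets) among 7164 genes named in the table. Gsta1 was read only by a probe set that also carries other symbols, and G6pdx was not analysed here. One of the 51 probe sets, the second of Mgst1, had a mean signal under 100 and was not tested, which left 50 tested probe sets for 34 genes.

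Livers of Atp7b knockout mice (KO903, KO904 and KO905) were compared with livers of wild-type mice (WT4, WT5 and WT6), with 1 Affymetrix array per sample. The labels give no strain, sex, age, diet or treatment. They refer the knockout to a line described earlier and do not say in which cells the gene is disrupted, and for WT6 alone they name the source in the plural, as mice. Whether every array stands for an animal of its own is not stated, and the p-values therefore reflect sample-to-sample spread that may in part be technical. Signals are the authors' MAS 5.0 values, a linear brightness scale, and differences were tested on log2(signal + 16).

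The arrays had median signals between 330.8 and 342.8. The ratio of 3′ to 5′ signal of actin, a sign of RNA integrity, was 1.17 to 1.22 in knockout livers and 1.10 to 1.47 in wild-type livers, with the highest value in WT6. The single probe set of Atp7b read 240.5, 231.8 and 184.9 in knockout livers and 259, 299.7 and 241 in wild-type livers. The knockout values lay just below the wild-type values, and the difference did not pass (log2 -0.27 ± 0.16 (SE), adjusted p = 0.407). Where that probe set lies relative to the disrupted part was not examined, so it does not check the genotype. All 5 hepatocyte markers were read, with a summed signal of 90562 to 103040 in knockout livers and 95256 to 117506 in wild-type livers. None of the 5 passed in limma (0 higher and 1 lower at an unadjusted p under 0.05), and 3 of them lay below 0. The lower one was Tat, tyrosine aminotransferase, with 8469.7, 9614.2 and 10270.1 in knockout livers and 11788.4, 15032.6 and 11360.0 in wild-type livers, without overlap (log2 -0.42, adjusted p = 0.0803). None of the 4 tested Kupffer cell markers of 5 listed passed, and on the brightest probe set of each all 4 had log2 differences above 0. The dimmer Csf1r probe sets lay at -0.31 and 0.17. The summed signal of the 4 markers was 3088 to 4135 in knockout livers and 2445 to 3209 in wild-type livers. Of 4 tested endothelial markers, 3 lay above 0 and 1 below, and none passed. The single tested stellate cell marker, Col3a1, lay at log2 -0.46 and the single lymphocyte marker, Ptprc, at 0.23, without passing. The part of these cell types in the results below was not tested. In whole liver, fewer cells of a type and less RNA per cell cannot be told apart.

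NRF2, encoded by Nfe2l2, is held in the cytosol and sent for degradation by KEAP1. Electrophiles and oxidants modify KEAP1, and NRF2 then enters the nucleus and, paired with a small MAF protein, binds antioxidant response elements in front of its target genes. These targets make glutathione, attach it to electrophiles, reduce quinones and supply NADPH. Copper ions can take part in redox reactions and bind thiols, and hepatocytes hold much of the body's glutathione and large amounts of glutathione transferases of the alpha, mu and pi classes.

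In the knockout livers, 5 of the 34 genes rose and none fell: Aox1, Gstp3, Gclc, Gstm3 and Gstp1, by 1.49-fold to 1.92-fold. Both transferases of the pi class were among them. The theta class and Gstk1 lay within the spread between samples, and the pentose phosphate genes Taldo1 and Tkt had lower values that did not pass. By probe set, 6 of 50 passed as higher and 0 as lower in limma at an adjusted p of 0.05, against 2.05% and 2.09% (4.14% in either direction) of all 10620 tested probe sets. At an unadjusted p under 0.05, 16 of the 50 were higher and 6 lower, against 9.69% and 8.2% of all. All 3 knockout values lay above all 3 wild-type values in 15 of the 50 and below them in 5, against 13.2% and 10.4% of all. The log2 difference was above 0 for 35 of the 50 (70%), against 54.6% of all. The median log2 difference over the 34 genes, each read by its brightest tested probe set, was 0.22, against 0.03 over all 6604 tested genes. Over the 50 probe sets the median was 0.14, against 0.03 over all 10620. The number of member probe sets that passed as higher ranged from 2 to 7 when 1 sample was left out. It was 2 without KO904 or KO905, 3 without WT6, 4 without KO903 or WT4 and 7 without WT5.

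**Figure D1:**
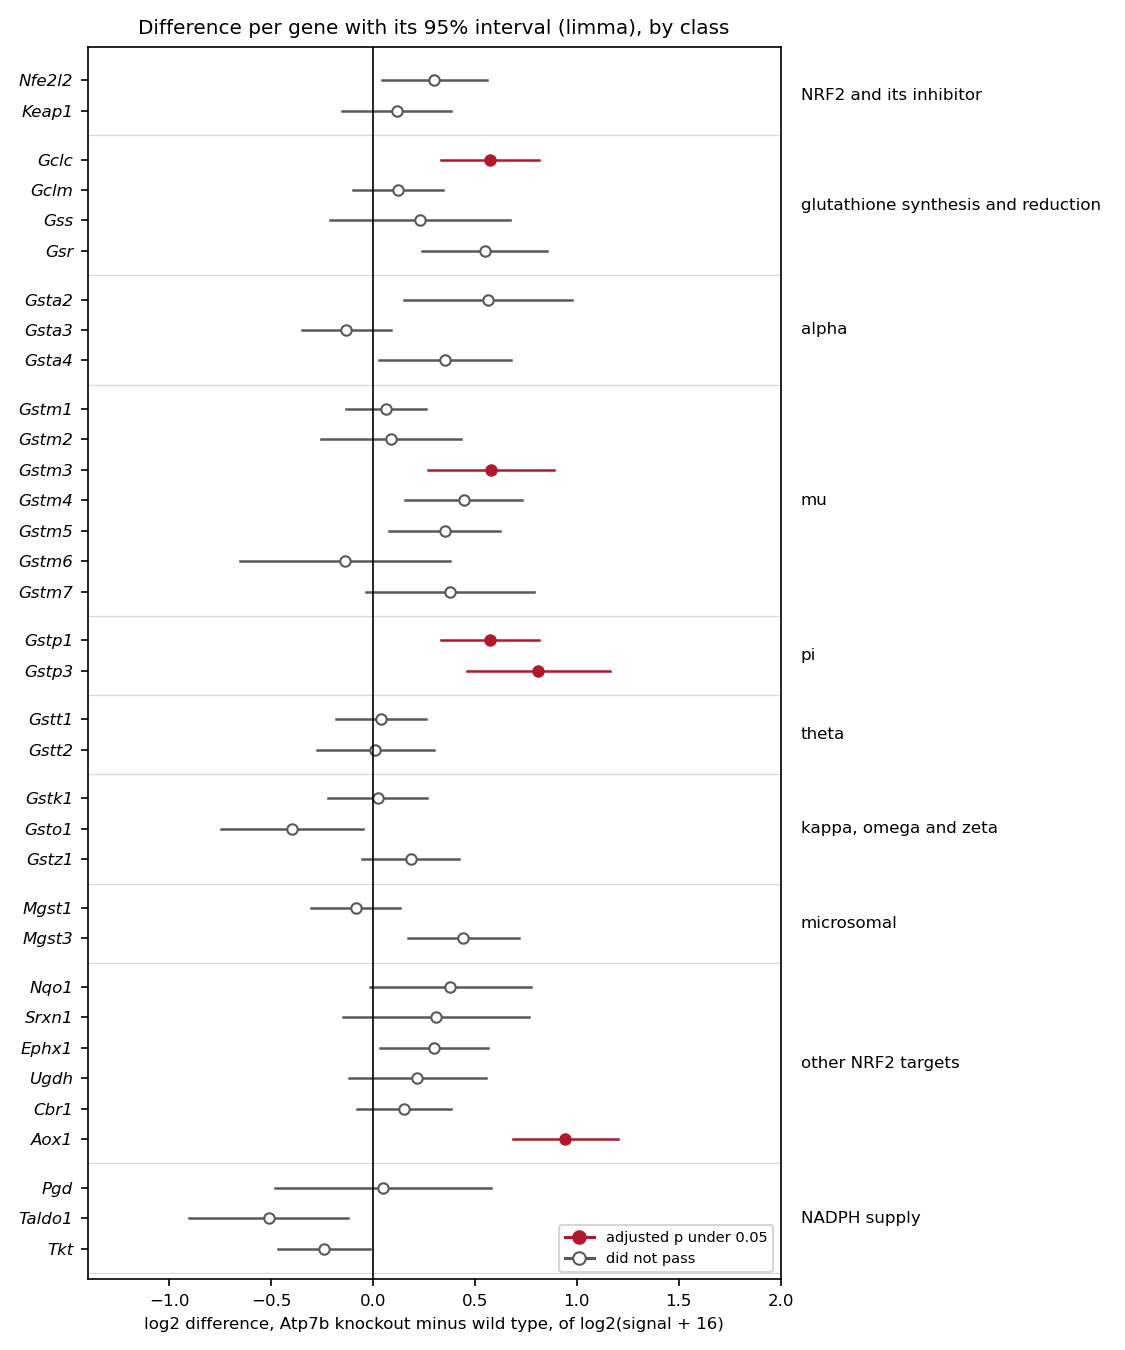
Log2 difference, knockout minus wild type, of the 34 tested genes by class (points, with 95% intervals from limma, n = 3 samples per group). Filled red points passed an adjusted p of 0.05. Both pi class genes, Gclc, Gstm3 and Aox1 lie to the right of 0 and passed, while theta class points sit at 0.01 and 0.04 and Taldo1 (-0.51) and Tkt (-0.24) lie to the left.

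Nfe2l2, the gene of NRF2 itself, had signals of 889.8, 938.1 and 1023.0 in knockout livers and 706.8, 791.9 and 805.8 in wild-type livers. The knockout values all lay above the wild-type values, by a log2 difference of 0.30 ± 0.12 (SE) that did not pass after adjustment (adjusted p = 0.205). Keap1, its inhibitor, was read by a pair of probe sets. The brighter gave 575.2, 537.9 and 505.0 in knockout livers and 471.7, 491.5 and 524.4 in wild-type livers (log2 0.12, 95% interval -0.15 to 0.38), and the groups overlapped. The dimmer gave 189.9, 277.8 and 280.1 in knockout livers and 245.2, 255.6 and 215.7 in wild-type livers (log2 0.04, interval -0.34 to 0.42). Its values overlapped too, and its sign turned with the samples kept.

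Glutathione is built in 2 steps, and the first is carried out by glutamate-cysteine ligase, made of a catalytic subunit (Gclc) and a modifier subunit (Gclm). Gclc rose on both of its probe sets. One gave 3254.8, 2811.5 and 3237.1 in knockout livers and 2072.4, 1917.5 and 2232.2 in wild-type livers (1.49-fold, log2 0.58 ± 0.11 (SE), adjusted p = 0.0154), and the other 1979.0, 2034.4 and 2085.4 in knockout livers and 1499.6, 1200.8 and 1321.3 in wild-type livers (1.52-fold, log2 0.60 ± 0.11 (SE), adjusted p = 0.0154). On each of them the lowest knockout liver stood clear of the highest wild-type liver. The call of the first was lost when KO903 or KO905 was left out (adjusted p at most 0.073) and that of the second without any 1 of the 3 knockout samples (up to 0.069). Gclm gave 2580.2, 2677.4 and 2324.6 in knockout livers and 2305.5, 2298.5 and 2342.1 in wild-type livers, with overlapping groups and a log2 difference of 0.12 (95% interval -0.10 to 0.35). The difference between the log2 signals of Gclc and Gclm, looked at after the single values were seen, was 0.33, 0.07 and 0.47 in knockout livers and -0.15, -0.26 and -0.07 in wild-type livers. The groups did not overlap in this difference, with KO904 the closest to wild type. Gclc alone already separated the groups, so this separation is not a further result.

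**Figure D2:**
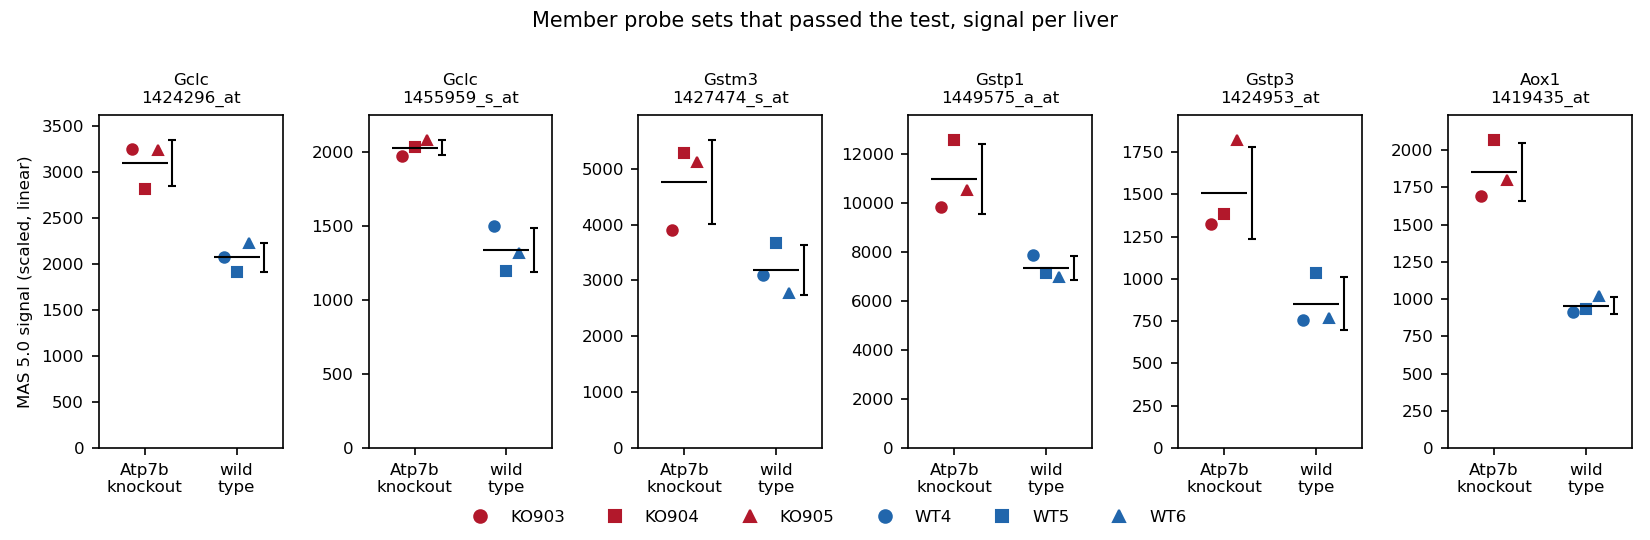
Signal per liver (linear axis from 0) of the 6 member probe sets that passed the test, with knockout livers in red left of wild-type livers in blue. Horizontal lines are group means and bars beside them 1 SD (n = 3 each); in every panel the 3 knockout points lie above the 3 wild-type points, and the smallest gap is in Gstm3 (3904.4 in KO903 and 3669.3 in WT5).

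The second step is made by glutathione synthetase (Gss), and glutathione reductase (Gsr) returns oxidised glutathione to its reduced form with NADPH. Gsr came close to the threshold. Its brighter probe set gave 1360.2, 1634.4 and 1370.6 in knockout livers and 926.9, 1181.1 and 876.3 in wild-type livers (1.46-fold, log2 0.55 ± 0.14 (SE), adjusted p = 0.0533). The other gave 881.1, 699.5 and 707.7 in knockout livers and 664.5, 418.5 and 526.4 in wild-type livers (log2 0.51 ± 0.17 (SE), adjusted p = 0.133). On both, every knockout liver was above every wild-type liver. The brighter probe set passed without WT5 (adjusted p = 0.0152), with array weights (0.0294), with robust eBayes (0.0499) and at a minimum signal of 200 (0.048). Gss gave 728.8, 626.7 and 729.4 in knockout livers and 695.1, 402.8 and 726.1 in wild-type livers, where WT5 alone was low (log2 0.23, 95% interval -0.21 to 0.67). Its sign turned without that sample (log2 -0.03), so no direction is given.

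Glutathione transferases join glutathione to reactive compounds, and the soluble ones act as dimers and are grouped into classes by sequence. Over all transferase classes, 3 of 19 tested genes rose and 0 fell in limma (8 higher and 1 lower at an unadjusted p under 0.05). Their median log2 difference was 0.18 by gene and 0.08 over their 26 probe sets. By probe set, 3 of 26 passed as higher and 0 as lower, against 2.05% and 2.09% of all 10620 tested probe sets. At an unadjusted p under 0.05, 9 of the 26 were higher and 2 lower, against 9.69% and 8.2% of all.

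The pi class was the only class in which all tested genes passed, with 2 genes. Gstp1, the most studied pi class transferase, gave 9832.3, 12575.5 and 10529.5 in knockout livers and 7893.3, 7135.8 and 6977.9 in wild-type livers (1.49-fold, log2 0.57 ± 0.11 (SE), adjusted p = 0.0154). Gstp3, a neighbouring gene of the same class, gave 1322.6, 1383.6 and 1822.1 in knockout livers and 758.1, 1033.8 and 769.3 in wild-type livers (1.75-fold, log2 0.81 ± 0.16 (SE), adjusted p = 0.0188). For both genes the groups stood apart, and KO905 was the highest for Gstp3 whereas KO904 was the highest for Gstp1. The call of Gstp1 ended without KO904 or WT6 (adjusted p up to 0.0714) and with eBayes without a trend (0.0576). That of Gstp3 was lost when WT4, WT6, KO904 or KO905 was left out (at most 0.0776). In the reference annotation Gstp1, Gstp2 and Gstp3 follow each other on chromosome 19. Gstp1 and Gstp2 are close copies, so the probe set named for Gstp1 may also read Gstp2, which was not analysed here on a probe set of its own.

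Pi class transferases are known to be more abundant in male than in female mouse liver, and the labels give no sex. Of the 3 tested genes of 7 listed as male-predominant, Cyp2d9 and Cyp7b1 rose. Cyp2d9, a male-specific steroid hydroxylase, gave 3500.9, 4324.9 and 3712.4 in knockout livers and 2130.5, 2184.0 and 1418.5 in wild-type livers (log2 1.02, adjusted p = 0.00625). The summed signal of the 3 genes was 4393 to 5144 in knockout livers and 1922 to 2570 in wild-type livers. Xist, which is transcribed from the inactive X chromosome of female cells, was read on all 6 arrays by its brightest probe set, with 4283.8, 3617.3 and 3886.8 in knockout livers and 2942.5, 4048.0 and 3528.8 in wild-type livers. The groups overlapped on that probe set. Its other 2 probe sets had all knockout values below all wild-type values without passing, for example 1124.5, 1097.0 and 1133.2 in knockout livers and 1496.1, 1183.7 and 2385.2 in wild-type livers (adjusted p = 0.202). Of 8 female-predominant genes listed, 1 was tested: Hao2 gave 2481.8, 2778.5 and 3031.8 in knockout livers and 2212.0, 1722.9 and 2479.4 in wild-type livers (log2 0.38, adjusted p = 0.181). The part of sex-biased expression was not tested, either in the pi class result or in that of any other member, Aox1 included.

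The mu class holds 7 genes that lie side by side on chromosome 3. In chromosomal order, the log2 differences were 0.35 for Gstm5, 0.38 for Gstm7, -0.14 for Gstm6, 0.58 for Gstm3, 0.09 for Gstm2, 0.06 for Gstm1 and 0.44 for Gstm4. Of these, Gstm3 alone passed. Neighbours were not tested against each other.

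Gstm3 gave 3904.4, 5275.9 and 5120.7 in knockout livers and 3093.5, 3669.3 and 2781.2 in wild-type livers on its brighter probe set (1.49-fold, log2 0.58 ± 0.14 (SE), adjusted p = 0.0453). Its other probe set gave 772.4, 1231.5 and 1255.5 in knockout livers and 742.3, 923.0 and 617.5 in wild-type livers, a log2 difference of 0.49 that did not pass (adjusted p = 0.223). On the first the groups stood apart, and on the second KO903 lay among the wild-type livers. The call was lost when WT4, WT6, KO904 or KO905 was left out (adjusted p at most 0.176), with each array centred on its median (0.0558) and with eBayes without a trend (0.0946). The name of the brighter probe set ends in _s_at, which on this array type marks probes shared between transcripts, so it may read other mu class genes too. In all, 17 of the 51 member probe sets have names ending in _s_at, _x_at or _a_at. Among them are the brightest of Gstm1 (_x_at) and 1 each of Gclc and Srxn1 (_s_at). What else these probe sets read was not examined.

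Gstm4 and Gstm5 had knockout values above all wild-type values without passing. Gstm4 gave 1560.5, 1967.9 and 1916.4 in knockout livers and 1346.1, 1464.0 and 1173.8 in wild-type livers (log2 0.44 ± 0.13 (SE), adjusted p = 0.0864). Gstm5 gave 762.2, 738.2 and 834.4 in knockout livers and 557.7, 590.3 and 673.5 in wild-type livers (log2 0.35 ± 0.12 (SE), adjusted p = 0.155). Gstm1, the major mu class transferase of mouse liver, was read by 4 probe sets with signs both above and below 0 and log2 differences from -0.06 to 0.08. Its probe set with the highest mean gave 12088.2, 13036.8 and 11116.6 in knockout livers and 11322.1, 11765.7 and 11492.8 in wild-type livers, with overlapping groups and a 95% interval of -0.13 to 0.26. The next probe set of Gstm1 gave 11250.0, 11836.2 and 10490.3 in knockout livers and 10205.2, 11014.0 and 10619.2 in wild-type livers. The other 2 gave 1216.5, 1660.1 and 1505.9 in knockout livers and 1537.2, 1352.7 and 1561.5 in wild-type livers, and 982.3, 1040.8 and 768.4 in knockout livers and 1238.7, 785.2 and 916.7 in wild-type livers. The groups overlapped on all 4, and neither group was the higher one throughout.

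The remaining mu class readings spread widely within groups. Gstm6 gave 526.6, 776.1 and 683.8 in knockout livers and 713.8, 1051.3 and 498.5 in wild-type livers, with the highest and the lowest value both in wild type. Gstm7 gave 976.1, 1352.3 and 1218.1 in knockout livers and 785.0, 1218.1 and 755.7 in wild-type livers on its brighter probe set and 94.5, 224.8 and 171.9 in knockout livers and 143.0, 178.6 and 150.8 in wild-type livers on its dimmer one, with overlap on both (log2 0.38 and -0.02). Gstm2 gave log2 0.09 (95% interval -0.26 to 0.43). Mu class transferases are known to be denser around the central vein than around the portal tract. The summed signal of 6 pericentral markers was 33133 to 37346 in knockout livers and 33888 to 36573 in wild-type livers, and that of 3 tested periportal markers of 6 listed was 13120 to 14013 in knockout livers and 14271 to 15275 in wild-type livers. The periportal sums did not overlap. Cyp2f2, the brightest of the 3, gave 8933.9, 9175.6 and 9128.9 in knockout livers and 11664.3, 12337.2 and 11311.3 in wild-type livers. Cdh1 lay the other way, with all knockout values above all wild-type values, but did not pass in limma (log2 0.78, adjusted p = 0.0618). Among the calls, the periportal list held 1 gene that rose (Hal) and 1 that fell (Cyp2f2), and the pericentral list held 1 that fell (Glul). Each of these 3 calls was lost when any of several single samples was left out (adjusted p up to 0.134). The dimmer Glul probe set overlapped (log2 -0.13, adjusted p = 0.63). Slc1a2, also pericentral, had all knockout values above all wild-type values without passing in limma (log2 0.50, adjusted p = 0.0964). On the brightest probe sets, 2 of the 6 pericentral genes lay above 0 and 4 below. The part of zonation was not tested.

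**Figure D3:**
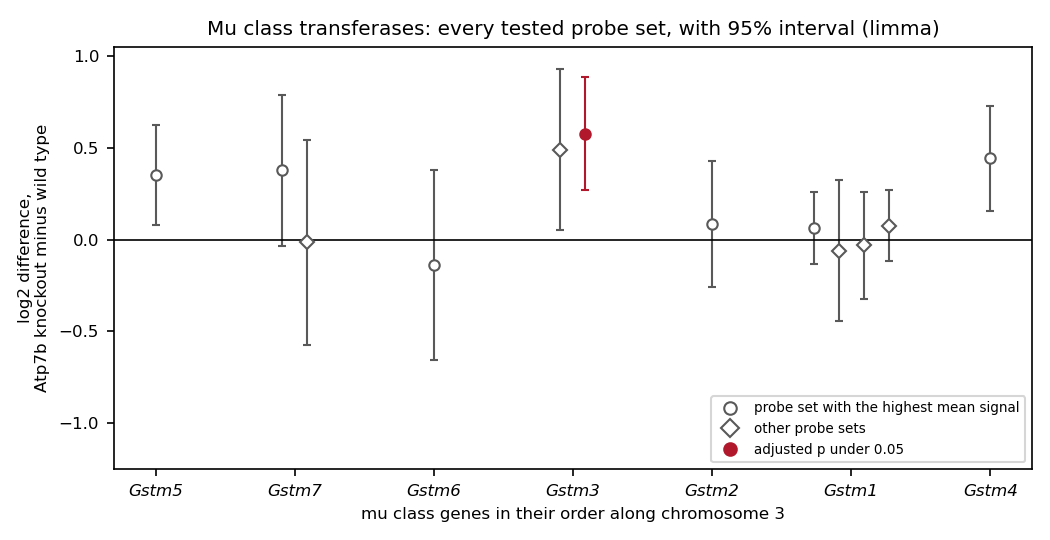
Log2 difference, knockout minus wild type, of all 12 tested mu class probe sets (y axis, with 95% intervals), with genes in their order along chromosome 3 (x axis, not to distance). Circles mark the probe set with the highest mean signal of each gene; the filled red point, Gstm3 at 0.58, is the 1 probe set that passed.

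In the alpha class, whose members also reduce lipid hydroperoxides and conjugate the lipid aldehyde 4-hydroxynonenal, none of 3 tested genes passed in limma (2 at an unadjusted p under 0.05). Gsta2 gave 1657.7, 2347.8 and 2588.3 in knockout livers and 1136.3, 1562.2 and 1731.2 in wild-type livers (log2 0.57 ± 0.19 (SE), adjusted p = 0.13), with KO903 below WT6. Gsta4, the form most active on 4-hydroxynonenal, gave 997.8, 1121.2 and 1125.9 in knockout livers and 677.8, 886.9 and 994.1 in wild-type livers (log2 0.35 ± 0.15 (SE), adjusted p = 0.236), with KO903 just above WT6. The 2 probe sets of Gsta3 differed in sign. The brighter gave 5799.2, 6830.7 and 6182.1 in knockout livers and 6454.5, 7298.5 and 6841.3 in wild-type livers (log2 -0.13, interval -0.35 to 0.09), and the dimmer 2016.1, 2785.8 and 2367.5 in knockout livers and 1573.2, 2416.6 and 2183.2 in wild-type livers (log2 0.22, interval -0.14 to 0.59). Neither set of values separated the groups.

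The theta class acts on small halogenated compounds. Counted by gene, it gave the smallest median difference of the transferase classes together with the kappa, omega and zeta group (0.03 and 0.02). Over probe sets, the median of that group was -0.19. Gstt1 gave 4150.7, 3899.4 and 4162.5 in knockout livers and 3648.1, 4349.1 and 3914.2 in wild-type livers, a log2 difference of 0.04 with a 95% interval of -0.18 to 0.26. Gstt2 gave log2 0.01 (interval -0.28 to 0.30). Both signs turned when WT4 was left out (log2 -0.02 for Gstt1 and -0.14 for Gstt2). Gstt3, of the same class but outside the member list, gave 1044.8, 1322.3 and 1307.9 in knockout livers and 1675.7, 2592.7 and 1678.4 in wild-type livers. Its knockout values all lay below its wild-type values, and the difference of -0.66 ± 0.17 (SE) on the log2 scale just missed the threshold (adjusted p = 0.0571).

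Among the remaining classes, the mitochondrial and peroxisomal Gstk1 gave 2513.5, 2935.1 and 2801.4 in knockout livers and 2474.6, 2977.7 and 2677.6 in wild-type livers (log2 0.02, interval -0.22 to 0.27, with a sign that turned without WT4 or KO904). Gsto1, an omega class enzyme with thioltransferase activity, was the 1 transferase among the members with an unadjusted p under 0.05 and a negative sign. It gave 1724.1, 2016.3 and 1736.9 in knockout livers and 1977.9, 2242.2 and 3134.1 in wild-type livers (log2 -0.40 ± 0.16 (SE), adjusted p = 0.214), and its other probe set 1504.9, 1164.0 and 1515.5 in knockout livers and 1728.4, 1613.7 and 2272.0 in wild-type livers (log2 -0.41 ± 0.15 (SE), adjusted p = 0.178). On both, WT6 was the highest liver; the groups overlapped on the first and not on the second. Without WT6 the log2 differences were -0.21 and -0.27. Gstz1, which isomerises maleylacetoacetate in tyrosine breakdown, gave 3822.9, 4190.4 and 4751.9 in knockout livers and 3491.4, 3870.7 and 3836.8 in wild-type livers. KO903 lay below 2 of the wild-type values (log2 0.18, interval -0.05 to 0.42).

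The microsomal transferases are membrane proteins of a separate family. Mgst1 gave 13278.4, 14302.2 and 13170.7 in knockout livers and 13445.0, 16426.6 and 13522.5 in wild-type livers, with overlapping groups (log2 -0.09, interval -0.30 to 0.13). Mgst3 gave 1073.8, 1226.7 and 1160.5 in knockout livers and 743.0, 864.3 and 932.6 in wild-type livers. Its knockout values all lay above its wild-type values, by 0.44 ± 0.12 (SE) on the log2 scale, short of the threshold (adjusted p = 0.0754).

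Of the other 6 NRF2 targets, Aox1 rose and the rest did not pass. Aox1, an aldehyde oxidase that also oxidises many drugs, gave 1693.7, 2070.4 and 1801.6 in knockout livers and 910.8, 935.8 and 1018.9 in wild-type livers (1.92-fold, log2 0.94 ± 0.12 (SE), adjusted p = 0.00155). Its lowest knockout liver was well above its highest wild-type liver, and of the 5 genes that rose it alone passed under all 15 alternatives run on it (adjusted p up to 0.0111).

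Nqo1, a quinone reductase and a widely used readout of NRF2, gave 248.5, 254.2 and 381.9 in knockout livers and 202.3, 212.9 and 242.7 in wild-type livers. The groups did not overlap, with KO905 far above the other 2 knockout livers, and the difference did not pass (log2 0.38 ± 0.18 (SE), adjusted p = 0.3). Without KO905 it was 0.19. Ephx1, the microsomal epoxide hydrolase, gave 5333.5, 6659.0 and 6351.7 in knockout livers and 5479.9, 4314.6 and 5123.0 in wild-type livers (log2 0.30 ± 0.12 (SE), adjusted p = 0.222), with KO903 below WT4. Cbr1, a carbonyl reductase, gave 1249.6, 1274.7 and 1373.3 in knockout livers and 1180.5, 1148.6 and 1174.3 in wild-type livers, apart but by a log2 difference of 0.15 (interval -0.08 to 0.38). Ugdh, which makes UDP-glucuronate, gave log2 0.22 (interval -0.12 to 0.55).

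Srxn1, the sulfiredoxin that restores overoxidised peroxiredoxins, was read by 3 probe sets that did not share a sign. The brightest gave 378.2, 614.3 and 639.4 in knockout livers and 446.1, 503.5 and 340.7 in wild-type livers (log2 0.31, interval -0.15 to 0.77). The next gave 336.5, 247.6 and 307.7 in knockout livers and 349.8, 468.5 and 352.1 in wild-type livers (log2 -0.37, interval -0.73 to -0.01), with the knockout values below the wild-type values. The dimmest gave 131.1, 189.1 and 182.6 in knockout livers and 147.0, 182.2 and 88.5 in wild-type livers (log2 0.28). No direction can be given for this gene. In all, 11 member genes had several tested probe sets, and in 6 of them the signs were the same.

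NADPH for glutathione reductase comes in part from the pentose phosphate pathway. None of its 3 tested genes passed in limma (0 higher and 2 lower at an unadjusted p under 0.05). Taldo1, the transaldolase of its later steps, gave 667.9, 562.1 and 726.5 in knockout livers and 909.0, 1211.8 and 734.7 in wild-type livers (log2 -0.51 ± 0.18 (SE), adjusted p = 0.145). Tkt, the transketolase, gave 2263.5, 2096.7 and 2429.0 in knockout livers and 2613.0, 2775.6 and 2629.5 in wild-type livers on its brighter probe set (log2 -0.24 ± 0.10 (SE), adjusted p = 0.245) and 1012.7, 783.5 and 892.1 in knockout livers and 1079.8, 1226.1 and 1027.3 in wild-type livers on the other (log2 -0.31 ± 0.13 (SE), adjusted p = 0.242). In all 3 readings the knockout livers lay below the wild-type livers.

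Pgd, 6-phosphogluconate dehydrogenase, which forms NADPH directly, had 4 probe sets and overlapping groups in each. Its brightest gave 579.0, 539.0 and 529.2 in knockout livers and 487.7, 841.5 and 358.8 in wild-type livers (log2 0.05, interval -0.48 to 0.58). The next gave 350.7, 356.5 and 419.6 in knockout livers and 500.6, 918.2 and 334.4 in wild-type livers (log2 -0.50, interval -1.12 to 0.11). The remaining ones gave 303.6, 278.9 and 406.1 in knockout livers and 446.7, 554.4 and 338.2 in wild-type livers (log2 -0.41), and 312.0, 373.9 and 371.9 in knockout livers and 397.8, 514.4 and 292.4 in wild-type livers (log2 -0.15). WT5 was the highest of the 6 livers on all 7 probe sets of these 3 genes. The same sample was the highest for Me1, the NADPH-forming malic enzyme, with 2507.7, 2650.1 and 3375.8 in knockout livers and 3270.8, 5703.0 and 2028.7 in wild-type livers. Without WT5 the log2 difference was -0.33 for Taldo1, -0.21 and -0.24 for Tkt, and 0.38, -0.12, -0.25 and 0.04 for Pgd (in the order above), with no call (adjusted p from 0.233 to 0.933).

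**Figure D4:**
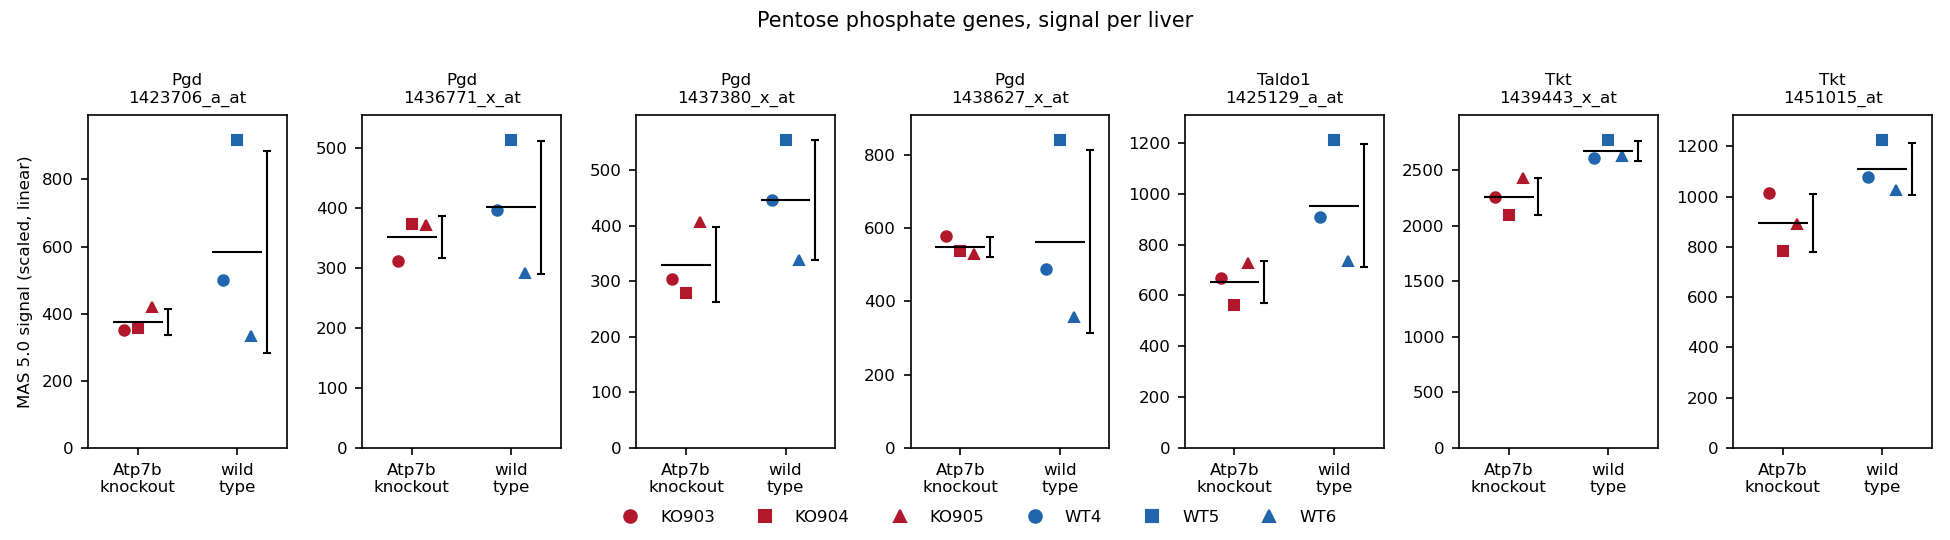
Signal per liver (linear axis from 0) of the 7 probe sets of Pgd, Taldo1 and Tkt, knockout livers in red left of wild-type livers in blue, with group means (lines) and 1 SD (bars, n = 3 each). WT5 (blue square) is the highest point in every panel, and no probe set passed the test.

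Promoter windows of the genes that rose are shown because NRF2 acts through a short element. The windows cover the 250 bases before the annotated start (RefSeq, GRCm38.p6), read 5′ to 3′ on the strand of the gene. Of the members, 32 were matched; Gclc, Gsr, Gsta4 and Gstt2 were not. Both strands were searched for TGACNNNGC, the core of the antioxidant response element, and for TGACTCA, the site of AP-1 factors, which overlaps the element where GC follows it. Capitals mark a match to either.
Aox1, chr1:58029719-58029968, plus strand: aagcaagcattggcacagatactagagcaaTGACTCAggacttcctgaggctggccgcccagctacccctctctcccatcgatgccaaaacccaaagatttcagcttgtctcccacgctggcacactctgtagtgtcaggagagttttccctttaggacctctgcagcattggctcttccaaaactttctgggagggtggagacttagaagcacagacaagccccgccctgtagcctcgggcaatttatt
Gstp1, chr19:4037913-4038162, minus strand: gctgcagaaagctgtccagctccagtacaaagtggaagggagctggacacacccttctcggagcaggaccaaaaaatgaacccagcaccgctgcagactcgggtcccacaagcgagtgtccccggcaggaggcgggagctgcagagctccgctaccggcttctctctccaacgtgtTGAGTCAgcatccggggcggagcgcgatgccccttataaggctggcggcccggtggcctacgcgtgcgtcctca
Gstp3, chr19:4059448-4059697, minus strand: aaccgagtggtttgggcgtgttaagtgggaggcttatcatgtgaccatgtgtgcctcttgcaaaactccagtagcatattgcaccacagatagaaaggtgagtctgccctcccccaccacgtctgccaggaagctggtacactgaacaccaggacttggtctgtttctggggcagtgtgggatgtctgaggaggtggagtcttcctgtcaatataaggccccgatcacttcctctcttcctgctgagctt
Gstm3, chr3:107969175-107969424, minus strand: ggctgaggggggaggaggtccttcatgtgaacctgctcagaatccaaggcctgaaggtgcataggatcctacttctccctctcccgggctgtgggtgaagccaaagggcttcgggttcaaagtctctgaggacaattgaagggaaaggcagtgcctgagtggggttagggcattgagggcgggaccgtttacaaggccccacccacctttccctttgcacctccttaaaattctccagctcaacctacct
The Aox1 window held TGACTCA at 220 to 214 bases before the start. The Gstp1 window held it on the other strand, as TGAGTCA, at 74 to 68 bases before the start. There gc follows it, but the run begins with TGAG and so was not counted as TGACNNNGC. Runs that begin with TGAG were not searched for as the core. The windows of Gstp3 and Gstm3 held neither motif. Over all 27025 genes with windows, 11.5% held TGACNNNGC and 5.16% held TGACTCA. Among the 32 members, 8 (25%) held the first (G6pdx, Gclm, Gsta3, Gstm5, Gstm7, Mgst1, Nfe2l2 and Ugdh) and 4 (12.5%) the second (Aox1, Gstm5, Gstp1 and Srxn1). None of the 8 genes with TGACNNNGC was among the genes that rose, and 7 of them were tested in the liver data. Gclc, which rose, had no window, and the other genes that rose are too few to read anything from this count. A match is a run of letters, not evidence of binding, and its absence from 250 bases says nothing of elements elsewhere.

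Other genes of the pathway were taken from lists that do not overlap with the members. Of 59 genes listed, 38 were tested, 2 rose and 1 fell, with a median log2 difference of -0.04. By probe set, 3 of 56 passed as higher and 2 as lower, against 2.05% and 2.09% of all 10620 tested probe sets. None of the 10 tested partners and regulators of NRF2 passed in limma. Their log2 differences lay above 0 for 2 genes and below 0 for 8, with a median of -0.13. At an unadjusted p under 0.05, 0 were lower and 1 was higher. That 1 was Sqstm1, a cargo adaptor of autophagy that can bind KEAP1, with 3567.6, 4237.2 and 4359.0 in knockout livers and 3091.6, 4018.2 and 2577.5 in wild-type livers. Its groups overlapped, since WT5 lay above KO903. Sqstm1 and the other genes outside the members that did not pass and are named (Me1, Gstt3, Hmox1, Abcc2, Oplah and Chac1) were picked after their values were seen.

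Of 9 further NRF2 targets tested, Blvrb, a biliverdin and flavin reductase, rose. It gave 2393.7, 2496.3 and 1992.0 in knockout livers and 1623.6, 1455.5 and 1525.0 in wild-type livers (1.48-fold, log2 0.57 ± 0.12 (SE), adjusted p = 0.0228), a call that ended without KO903, KO904 or WT6 (adjusted p up to 0.103) and with eBayes without a trend (0.0547). Heme oxygenase (Hmox1) stayed at low signal, with 150.4, 157.8 and 94.6 in knockout livers and 125.0, 100.1 and 104.9 in wild-type livers, and its groups overlapped. The canalicular exporter of glutathione conjugates, Abcc2, gave 346.9, 265.5 and 407.7 in knockout livers and 440.7, 625.3 and 800.6 in wild-type livers. All of its knockout values lay below its wild-type values, short of the threshold (log2 -0.82 ± 0.21 (SE), adjusted p = 0.0572) except without WT4 (0.0242).

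Genes of glutathione breakdown and of the glyoxalase system, which uses glutathione to clear methylglyoxal, held 1 gene that rose and 1 that fell among 10 tested. They are the 2 enzymes of the glyoxalase system, Glo1 and Hagh. By probe set, 2 of 17 passed as higher and 2 as lower, against 2.05% and 2.09% of all 10620 tested probe sets. Glo1, the first, rose on its brightest probe set, with 9165.6, 8491.6 and 8324.4 in knockout livers and 5026.4, 5527.5 and 6599.1 in wild-type livers (1.52-fold, log2 0.61 ± 0.11 (SE), adjusted p = 0.0137). A second probe set also passed (log2 0.77, adjusted p = 0.0107) and the remaining one did not (log2 0.43, adjusted p = 0.139). Hagh, which releases the glutathione again, fell on its brightest probe set, with 3046.1, 2889.9 and 3097.4 in knockout livers and 4402.1, 3899.2 and 4028.1 in wild-type livers (a 1.36-fold decrease, log2 -0.45 ± 0.10 (SE), adjusted p = 0.0296). A second probe set of Hagh passed (log2 -0.60, adjusted p = 0.00965) and the remaining one did not (log2 -0.31, adjusted p = 0.124). On all 6 probe sets the groups stood apart, Glo1 upward and Hagh downward. These probe sets read 2 genes on the same arrays and are not independent. Of the 17 probe sets of the list, 4 had all knockout values above all wild-type values and 5 below. The shares over all 10620 were 13.2% and 10.4%. The difference between the log2 signals of Glo1 and Hagh, looked at after the single values were seen, was 1.58, 1.55 and 1.42 in knockout livers and 0.19, 0.50 and 0.71 in wild-type livers.

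The glyoxalase calls depended on the samples kept. Those of Glo1 ended without KO904 (adjusted p = 0.0599 and 0.0604) and, on the brightest probe set, without KO903 (0.0597), while the remaining probe set passed without WT6 (0.0236). That of the brightest Hagh probe set ended without any 1 sample but WT5 (up to 0.12) and with eBayes without a trend (0.0801), and that of the other without KO904 (0.0575). In the glutathione breakdown genes, Oplah, which opens 5-oxoproline, gave 413.3, 490.2 and 464.5 in knockout livers and 633.7, 644.6 and 651.3 in wild-type livers (log2 -0.49 ± 0.12 (SE), adjusted p = 0.0504). Chac1, which cleaves cytosolic glutathione, gave 172.9, 190.1 and 178.5 in knockout livers and 237.7, 297.9 and 263.4 in wild-type livers (log2 -0.52 ± 0.15 (SE), adjusted p = 0.076). Both had all knockout values below all wild-type values and missed the threshold. Over the alternatives the adjusted p of Oplah ran from 0.042 with each array centred on its median to 0.179 without KO903.

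**Figure D5:**
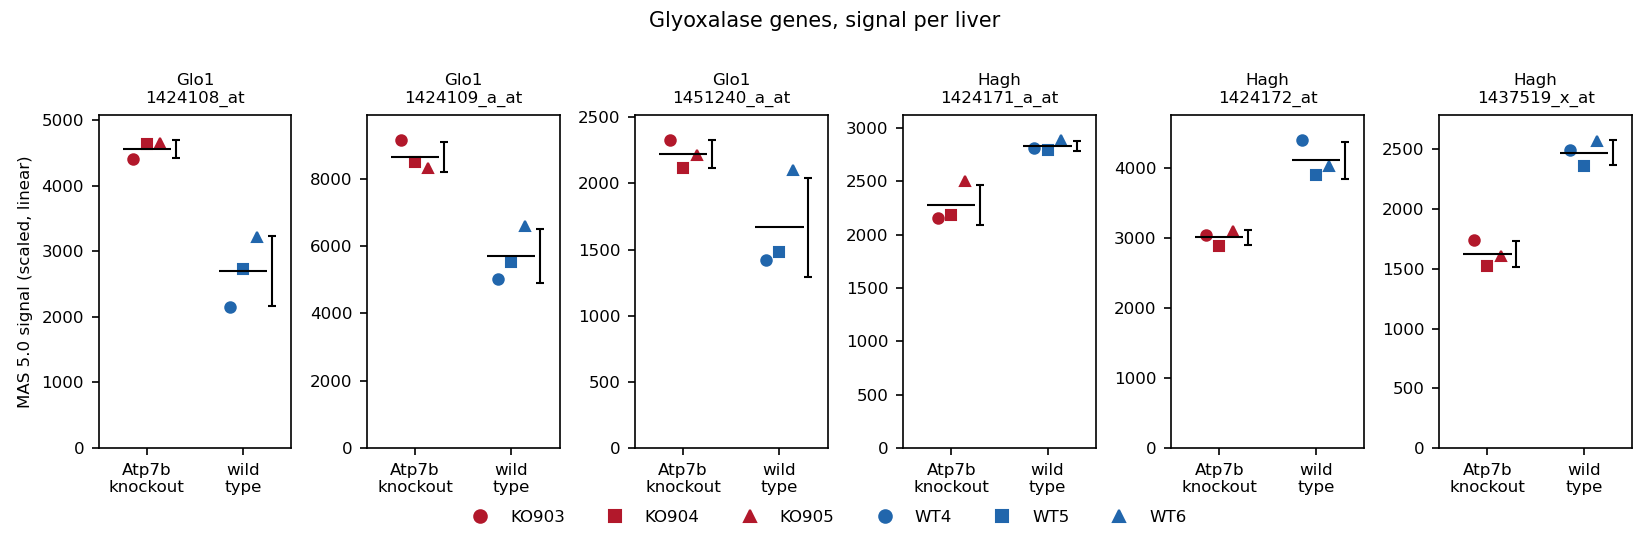
Signal per liver (linear axis from 0) of the 3 probe sets of Glo1 and the 3 of Hagh, knockout livers in red left of wild-type livers in blue, with group means (lines) and 1 SD (bars, n = 3 each). In the Glo1 panels all knockout points lie above all wild-type points, and in the Hagh panels all lie below them.

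Among 8 further genes of NADPH supply, none passed in limma (1 higher and 1 lower at an unadjusted p under 0.05), with a median log2 difference of -0.01.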

How the data were processed

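Total liver RNA of 3 Atp7b knockout and 3 wild-type samples was hybridised to 1 Affymetrix array each. Per the labels, the deposited values are intensity values, MAS 5.0 signals that the authors scaled per array to a target average of 350. Precision is limited by having 3 arrays a group. The titles give the groups, and their numbers do not pair.

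Of 11811 probe sets, 33 controls and 1158 with a mean signal under 100 were left out. The other 10620 were fitted on log2(signal + 16) with limma 3.58.1 in R 4.3.3 (lmFit, eBayes with trend; two-sided; Benjamini-Hochberg over all 10620; threshold 0.05). Folds were taken on that scale, so those of dim probe sets come out too small. Probe sets with 1 symbol in the platform annotation were named. The scripts were tested on simulated data. Values of all 6 arrays are given for members that passed, for those with an unadjusted p under 0.05, for the brightest probe set of each class, for Nfe2l2, Keap1 and Nqo1, and for genes whose probe sets disagree; other listed genes are named where they passed or where a marker value was needed, with the exceptions stated. The values of Gclm, Gss, Gstm6, Gstk1 and Cbr1 fall outside this rule and were chosen for printing after they were seen. Members and lists were chosen with earlier results of these data known. Alternatives varied the normalization, pseudocount, filter, variance model, array weights and samples. Figures used Python 3.11.15 with matplotlib 3.10.9.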

Additional observations from a re-analysis of the deposited data

How the results depend on the processing

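Leaving out 1 sample moved the counts most: 82 to 242 of all probe sets passed as higher and 93 to 233 as lower (218 and 222 with all samples), and 2 to 7 member probe sets passed as higher and 0 as lower. Under the other alternatives 4 to 7 member probe sets passed as higher and 0 as lower; the lowest count came with eBayes without a trend. Centring each array on its median gave 185 higher and 253 lower calls. That centring turned the median log2 difference of the theta class to -0.0015 and of the kappa, omega and zeta group to -0.0049, with -0.015 for Gstt2 and -0.0049 for Gstk1. The dimmer Gstm7 probe set turned to 0.00051 with a pseudocount of 64 and to 0.0078 with array weights. When 1 sample was left out, the theta median ran from -0.079 to 0.096 and that of the kappa, omega and zeta group from -0.041 to 0.092. Over the same omissions the log2 differences of the following readings crossed 0, and no direction is given for them. They ran from -0.048 to 0.21 for the dimmer Keap1 probe set, from -0.034 to 0.38 for Gss, from -0.091 to 0.22 for Gstm2, from -0.40 to 0.13 for Gstm6 and from -0.26 to 0.30 for the dimmer Gstm7 probe set. The 2 dimmer probe sets of Gstm1 ran from -0.13 to 0.094 and from -0.20 to 0.12. Gstt1 ran from -0.020 to 0.11, Gstt2 from -0.14 to 0.087, Gstk1 from -0.041 to 0.092 and Mgst1 from -0.13 to 0.0097. The brightest Pgd probe set ran from -0.22 to 0.38, the dimmest from -0.35 to 0.041, and Me1 from -0.61 to 0.13. No paired analysis was possible because knockout and wild-type titles carry different numbers. No scaling moved the median of all probe sets by over 0.1. The cause of these changes was not tested.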
